A study of Mus musculus with 14 samples.

Results

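Neurexins and neuroligins are cell adhesion proteins that face each other across the synaptic cleft. Neurexins sit mostly on the presynaptic side, where their splice forms bind neuroligins and several other postsynaptic ligands, and neuroligins gather receptors and scaffold proteins beneath the contact. Neuroligin 2 is the family member found at inhibitory synapses, where it binds gephyrin, the scaffold that clusters glycine and GABAA receptors, while neuroligin 1 is found mainly at excitatory synapses and neuroligin 3 at both. Contactin-associated proteins are relatives of the neurexins, and CASPR2, the product of Cntnap2, holds Kv1 potassium channels beside the nodes of Ranvier together with contactin 2. In the hippocampus, parvalbumin (PV) interneurons place inhibitory synapses around the cell bodies and axon initial segments of principal cells, and they are themselves contacted by excitatory and inhibitory inputs.

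The genes examined here were Nrxn2, Nrxn3, Nlgn1, Nlgn2, Nlgn3, Cntnap2, Cntnap4, Cntnap5a and Gphn, 9 of the 39017 genes in the count table. They were taken by name, with earlier results of these data known. All 9 passed the filter on low counts and were among the 21298 genes tested. RNA was collected by translating ribosome affinity purification (TRAP), in which EGFP-tagged L10a ribosomes were immunoprecipitated from hippocampal homogenates, so that RNA bound to ribosomes of the tagged cells was sequenced. The mice were adult males of C57BL/6 background carrying a Cre-dependent EGFP-L10a transgene and PV-Cre, so the tag was confined to cells that express or have expressed Pvalb, in every group including the controls. TRAP libraries came from 4 non-defeated, 4 resilient and 3 susceptible samples, and 3 input libraries held RNA of non-defeated mice that had not been immunoprecipitated. Defeated mice had undergone chronic social defeat stress (CSDS), repeated defeat by CD1 aggressors, and were divided by their social interaction ratio into resilient (more time near a caged aggressor than near the empty cage) and susceptible (less time), while non-defeated mice were housed in pairs. The labels number the TRAP samples 1 to 11 across groups and the input samples 12 to 14. Neither the labels nor the methods say that each library is a separate mouse, so the p-values measure only the spread between these libraries.

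Library totals ranged over 72098582 to 94726962 counts for non-defeated TRAP, 75325264 to 87316567 for resilient and 73348628 to 77566993 for susceptible mice, and over 64110214 to 80063224 for input. All 9 PV interneuron markers were higher in TRAP RNA of non-defeated mice than in input, with Pvalb up by 5.85 on the log2 scale, while all 8 excitatory neuron, 7 oligodendrocyte and 7 microglia markers were lower, as were 5 of 7 astrocyte and 3 of 4 oligodendrocyte precursor markers. No marker was at 0 in every library of a group, although Cdh5 was at 0 in at least 1 non-defeated library, so RNA of other cells was still present in TRAP libraries. Of 8 markers of other interneurons, 2 were higher and 5 lower, and of 8 endothelial and mural markers, 2 were higher, Cldn5 among them by 1.22 on the log2 scale, and 1 lower. In such bulk RNA, fewer cells of a type and less RNA per cell cannot be told apart.

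The 3 neuroligin genes are shown first, because the largest log2 fold change between stress groups among the 9 genes was that of Nlgn2. Nlgn2 (ENSMUSG00000051790) occupies 14.7 kb on the minus strand of chromosome 11 (mm10, chr11:69823122-69837784), whereas Nlgn1 (ENSMUSG00000063887) spreads over 906.2 kb on the minus strand of chromosome 3 (chr3:25426215-26332460) and Nlgn3 (ENSMUSG00000031302) over 26.8 kb on the plus strand of chromosome X (chrX:101299168-101325963). Transcripts of Nlgn2 had a GC content of 60.0%, against 49.7% for Nlgn3 and 41.2% for Nlgn1. The coding stretch around the tyrosine by which the intracellular tail of neuroligin 2 meets gephyrin is given for each gene, 5′ to 3′ on the coding strand, with the tyrosine codon in capitals.
Nlgn1, chr3:25433800-25433844: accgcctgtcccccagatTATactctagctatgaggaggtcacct
Nlgn2, chr11:69825380-69825424: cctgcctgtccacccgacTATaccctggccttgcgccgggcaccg
Nlgn3, chrX:101320071-101320115: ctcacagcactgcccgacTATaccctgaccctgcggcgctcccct
Of the 45 bases, 14 in Nlgn1 and 16 in Nlgn3 were unlike the base in Nlgn2, and the TAT codon was the same in all 3. The last 48 coding bases are given in the same way, with capitals marking the 4 codons before the stop that encode the PDZ-binding end of the protein.
Nlgn1, chr3:25433638-25433685: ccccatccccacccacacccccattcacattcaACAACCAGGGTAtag
Nlgn2, chr11:69825203-69825250: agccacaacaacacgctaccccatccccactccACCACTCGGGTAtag
Nlgn3, chrX:101320215-101320262: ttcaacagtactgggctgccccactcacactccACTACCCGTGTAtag
Here 17 bases of Nlgn1 and 16 of Nlgn3 were unlike Nlgn2. The longest exact run shared by any transcripts was 17 bases between Nlgn1 and Nlgn2 and 23 bases between Nlgn3 and either of them, which is much shorter than a sequencing read, so whole reads of the 3 genes carry differences. Among the other paralogs examined, the longest shared run was 23 bases for Nrxn2 and Nrxn3 and 17 to 21 bases for pairs of Cntnap genes. All sequences are from GENCODE release M21 transcripts of mm10.

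To find how the genes are represented in ribosome-bound RNA of the tagged cells, TRAP RNA of non-defeated mice was compared with input. Input had not been immunoprecipitated, so cell type and binding to ribosomes cannot be told apart in this comparison. Relative to input, 5 of the 9 genes were higher (Cntnap4, Nlgn2, Nrxn2, Cntnap5a and Cntnap2), 2 were lower (Nlgn1 and Nlgn3) and 2 did not pass the test (Nrxn3 and Gphn). Of all genes tested, 27.4% were higher and 27.6% lower at an adjusted p under 0.05. The median log2 fold change of the 9 genes was 0.78, and that of all genes tested was -0.04.

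Among the neuroligins, Nlgn2 was the one that rose in TRAP RNA. Its level was 5.99, 5.86 and 5.07 CPM (counts scaled to library size) after TMM normalization (TMM CPM) in the 3 input libraries and 20.7, 18.7, 13.7 and 10.5 in the non-defeated TRAP libraries numbered 1, 6, 9 and 11. Every TRAP library was above every input library, and the TRAP libraries varied among themselves by about as much as their lowest value. The increase was 2.82-fold, a log2 fold change of 1.5 ± 0.22 (SE, edgeR adjusted p = 4.56e-05, exact permutation p = 0.0286, the smallest that 4 against 3 libraries allow).

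Nlgn1 was lower. Input libraries had 20.6, 22.5 and 17.7 TMM CPM, and the TRAP libraries 9.54, 10.9, 14.9 and 12.6. The groups did not overlap, and the log2 fold change was -0.76 ± 0.15 (SE, edgeR adjusted p = 0.000598, exact permutation p = 0.0571). Nlgn3 was lower by less: it had 57.9, 60.4 and 51.3 TMM CPM in input and 37.8, 40.0, 54.2 and 50.2 in TRAP libraries. Here 1 TRAP library lay within the range of input, and the log2 fold change was -0.31 ± 0.12 (SE, edgeR adjusted p = 0.0415, exact permutation p = 0.143). This call for Nlgn3 depended on the setting, since it was lost with these groups fitted alone, by edgeR (adjusted p = 0.0712) and by DESeq2 (adjusted p = 0.0648), and an offset for gene length brought the log2 fold change to 0.01. Of the 9271 exonic bases of Nlgn3, 3823 are shared with Gm21986, a gene model on the same strand, which had 1424 to 3094 counts per library, and how reads in the shared part were assigned is not given in the sources used here.

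**Figure D1:**
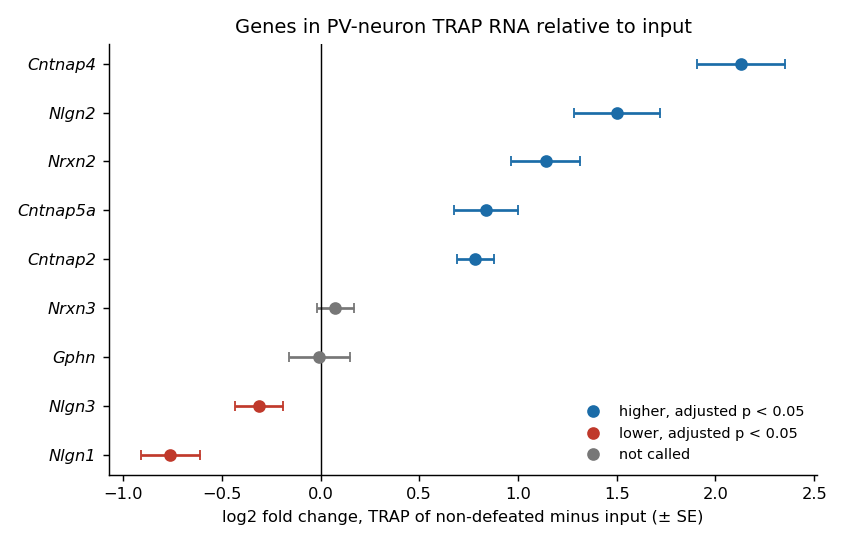
Log2 fold change of each gene (x axis) between TRAP RNA of 4 non-defeated samples and 3 input samples, from the edgeR fit; points are estimates, bars are ± 1 SE, and colours give the call at adjusted p under 0.05. Cntnap4 lies farthest to the right at 2.13 and Nlgn1 farthest to the left at -0.76, while the bars of Nrxn3 and Gphn cross 0.

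Of the neurexin genes, Nrxn2 was higher in TRAP RNA than in input and Nrxn3 was not called. Nrxn2 (ENSMUSG00000033768; chr19:6418731-6544169, plus strand) had 20.1, 18.3 and 22.1 TMM CPM in input and 50.7, 46.7, 42.1 and 38.4 in non-defeated TRAP libraries. Each TRAP library exceeded each input library, and the log2 fold change was 1.14 ± 0.18 (SE, edgeR adjusted p = 7.31e-05, exact permutation p = 0.0286). Nrxn3 (ENSMUSG00000066392; chr12:88722876-90334935, plus strand) had 84.6, 82.5 and 85.0 TMM CPM in input and 80.5, 86.6, 89.8 and 97.0 in TRAP RNA. These ranges overlapped, and the log2 fold change was 0.07 ± 0.09 (SE, edgeR adjusted p = 0.514). With an offset for gene length, however, Nrxn3 was called higher, by 0.38 on the log2 scale (adjusted p = 0.00261). Some exonic bases of Nrxn2 are also covered by genes on the opposite strand, 682 by Slc22a12, which had 1 to 33 counts, and 207 by Gm14964, which had 242 to 1271 counts, and the library kit does not keep the strand.

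All 3 contactin-associated genes rose in TRAP RNA. Cntnap4, whose protein lies on the presynaptic side of interneuron synapses, had the greatest increase of the 9 genes. It had 5.96, 6.83 and 8.5 TMM CPM in input and 30.1, 32.8, 29.3 and 31.7 in TRAP libraries, where it varied little. That is a 4.37-fold increase, with a log2 fold change of 2.13 ± 0.22 (SE, edgeR adjusted p = 2e-06, exact permutation p = 0.0286). Cntnap4 (ENSMUSG00000031772) lies on the plus strand at chr8:112570043-112882717.

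Cntnap2 (ENSMUSG00000039419; chr6:45059357-47304213, plus strand), one of the longest genes of the genome with a span of 2244.9 kb, had 19.6, 16.9 and 17.8 TMM CPM in input and 35.3, 29.7, 29.1 and 30.4 in TRAP RNA. The groups were well apart, with a log2 fold change of 0.78 ± 0.09 (SE, edgeR adjusted p = 7.23e-06, exact permutation p = 0.0286). Cntnap5a (ENSMUSG00000070695; chr1:115684756-116587323, plus strand) was the least abundant of the 3, with 3.87, 4.33 and 3.85 TMM CPM in input and 8.23, 6.60, 7.01 and 6.89 in TRAP RNA. It again did not overlap between groups, and its log2 fold change was 0.84 ± 0.16 (SE, edgeR adjusted p = 0.000492, exact permutation p = 0.0286). The calls for Cntnap4, Cntnap2, Cntnap5a, Nlgn2, Nrxn2 and Nlgn1 held in each of the 8 other settings tried and with each of the 7 libraries left out.

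Gphn (ENSMUSG00000047454; chr12:78226379-78684772, plus strand), which encodes gephyrin, a protein that also carries out the last steps of molybdenum cofactor synthesis in all tissues, had 55.9, 54.1 and 57.4 TMM CPM in input and 45.2, 52.1, 65.7 and 59.1 in non-defeated TRAP libraries. TRAP libraries fell on both sides of input, and the log2 fold change was -0.01 ± 0.15 (SE, edgeR adjusted p = 0.973). Nlgn2 and Gphn, whose products bind each other, thus had different values in the same comparison, 1.5 and -0.01 on the log2 scale; the difference between these genes was not tested.

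**Figure D2:**
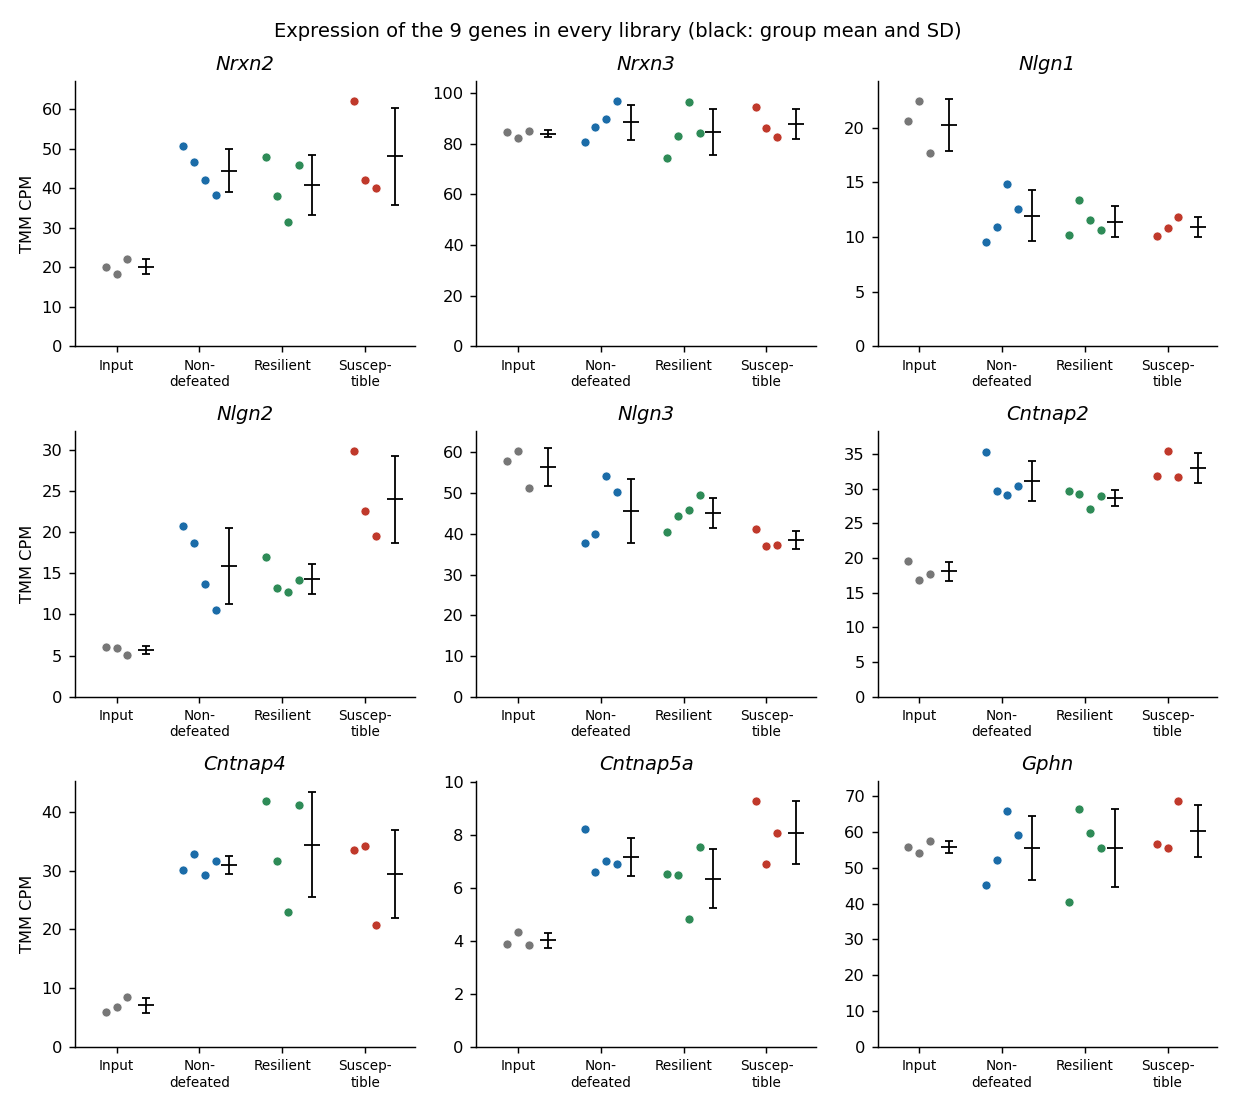
TMM CPM of each gene (y axis, from 0) in each of the 14 libraries, by group (x axis); coloured points are libraries, in order of the number in the sample name within a group, and black marks are the group mean ± SD. Cntnap4, Nlgn2, Nrxn2, Cntnap2 and Cntnap5a have every TRAP library of non-defeated mice above input, and Nlgn1 has them below. Among TRAP groups, only Nlgn2 and Cntnap2 have susceptible and resilient libraries that do not overlap. The share of all genes tested whose libraries separate in these ways was not counted.

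Levels of different genes were compared per kilobase of exon (RPKM, from TMM-normalized counts). In TRAP RNA of non-defeated mice (n = 4), Gphn was highest at 14.8 ± 2.36 RPKM (SD), followed by Nrxn3 at 7.02 ± 0.545. Cntnap4 at 4.94 ± 0.255 and Nlgn3 at 4.91 ± 0.851 came next and did not differ beyond their spread. The length used for Nlgn3 was 9271 bases, of which 3823 are shared with Gm21986. Its RPKM and its place thus depend on how reads in the shared part were assigned, which is not given. Nrxn2 (3.22 ± 0.39), Cntnap2 (3.04 ± 0.279) and Nlgn2 (2.75 ± 0.807) likewise lay within each other's spread. Nlgn1 (0.892 ± 0.172) and Cntnap5a (0.656 ± 0.0655) were lowest, and their mean ± SD ranges met. In input (n = 3), the order was Gphn at 14.9 RPKM, Nrxn3 at 6.67, Nlgn3 at 6.10, Cntnap2 at 1.76, Nlgn1 at 1.51, Nrxn2 at 1.46, Cntnap4 at 1.13, Nlgn2 at 0.975 and Cntnap5a at 0.367. Cntnap4 therefore stood seventh of 9 in input, below Nlgn1, and stood beside Nlgn3 in TRAP RNA.

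The make-up of each family was taken as the share of a gene in the summed RPKM of its measured members, a quantity that does not depend on library scaling; it describes only the genes named here. Nlgn2 made up 11.4% ± 0.404 (SD, n = 3) of neuroligin RNA in input, with a range of 11% to 11.8%, and 32.3% ± 10 (SD, n = 4) in TRAP RNA of non-defeated mice, with a range of 22.2% to 42.8%. Nlgn3 made up 71.1% in input and 57.3% in TRAP RNA, and Nlgn1 17.6% and 10.4%. The shares of all 3 neuroligins depend on how reads in the exons that Nlgn3 shares with Gm21986 were assigned. Per kilobase, the largest contactin-associated share was that of Cntnap2 in input, at 54.2% against 34.5% for Cntnap4. In TRAP RNA it was that of Cntnap4, at 57.2% against 35.2% for Cntnap2. Nrxn2 accounted for 17.9% ± 1.21 (SD, n = 3) of the summed Nrxn2 and Nrxn3 level in input and 31.5% ± 4.26 (SD, n = 4) in TRAP RNA. Taken as shares of counts, without division by length, Nlgn2 was 6.85% of neuroligin counts in input and 22.0% in TRAP RNA of non-defeated mice. By counts, Cntnap2 and Cntnap4 were at 61.9% and 24.3% in input and both at 44.8% in TRAP RNA of non-defeated mice. The change of places thus depended on division by length.

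**Figure D3:**
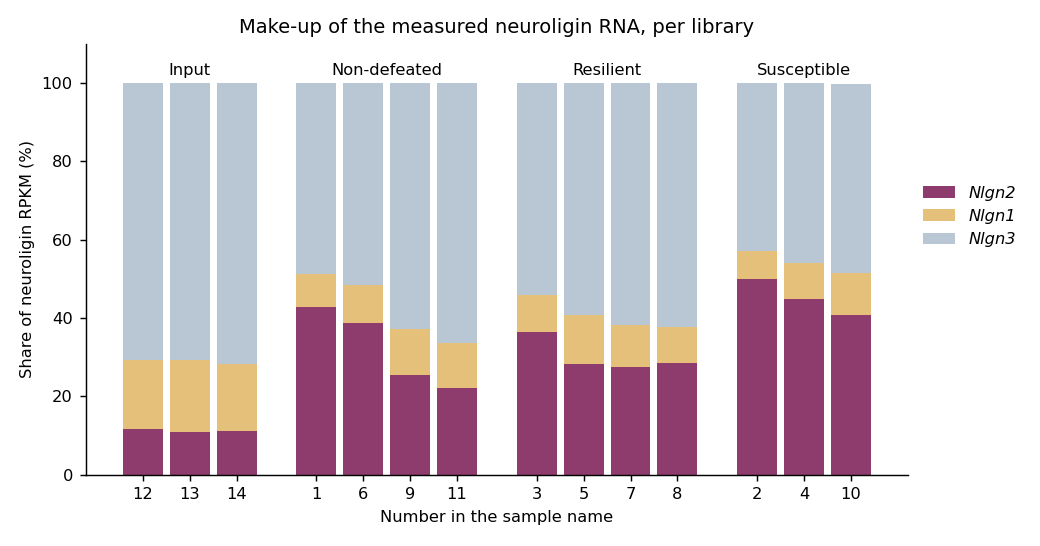
Share of Nlgn1, Nlgn2 and Nlgn3 in the summed neuroligin RPKM (y axis, %) of each library (x axis, the number in the sample name, by group). Nlgn2 (bottom segment) takes 11% to 11.8% in input libraries, 22.2% to 42.8% in non-defeated, 27.6% to 36.5% in resilient and 40.8% to 50.0% in susceptible TRAP libraries.

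To find whether the genes differed with the outcome of CSDS, the TRAP groups were compared with each other. None of the 9 genes passed an adjusted p under 0.05 in any of the 3 comparisons by edgeR's quasi-likelihood test. The comparisons with non-defeated mice share the same 4 control libraries, and the 2 comparisons with susceptible mice share the same 3 susceptible libraries, so their values are not independent. Neither comparison with non-defeated mice had a call among the 9 genes in any of the other settings, DESeq2 included, or with any library left out.

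Between resilient and non-defeated mice, no gene of the table was called (0% of genes tested at an adjusted p under 0.05), and 2.22% were higher and 2.16% lower at an unadjusted p under 0.05. None of the 9 genes reached an unadjusted p under 0.05. Their log2 fold changes lay between -0.18 ± 0.15 (SE) for Cntnap5a and 0.15 ± 0.19 for Cntnap4, and groups overlapped in all 9. Cntnap4 illustrates the spread: resilient libraries 3, 5, 7 and 8 had 41.9, 31.7, 23.0 and 41.3 TMM CPM, on both sides of the 29.3 to 32.8 of non-defeated libraries. Gphn also varied widely among resilient libraries, with 40.4, 66.4, 59.8 and 55.4 TMM CPM, and its mean of 55.5 ± 11 (SD, n = 4) was the same as the 55.5 ± 8.84 (SD, n = 4) of non-defeated mice.

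Between susceptible and non-defeated mice, 0.0376% of genes tested were called at an adjusted p under 0.05, none of them among the 9. At an unadjusted p under 0.05, 6.61% of genes were higher and 6.7% lower, and of the 9 genes 1, Nlgn2, was higher and 0 were lower. Nlgn2 had 29.9, 22.6 and 19.6 TMM CPM in susceptible libraries 2, 4 and 10, against 20.7, 18.7, 13.7 and 10.5 in non-defeated libraries. The lowest susceptible library lay below the highest non-defeated one, and the log2 fold change was 0.60 ± 0.21 (SE, edgeR unadjusted p = 0.0113, adjusted p = 0.254, exact permutation p = 0.143). The unadjusted p was 0.0865 (edgeR; fold change of 0.41 on the log2 scale; leaving 2 susceptible libraries, so that no exact permutation test could pass 0.05) without the susceptible library numbered 2. The other 8 genes had log2 fold changes between -0.24 ± 0.12 (SE) for Nlgn3 and 0.17 ± 0.16 for Cntnap5a. Nlgn3 had 41.1, 37.0 and 37.3 TMM CPM in susceptible libraries, within or just below the 37.8 to 54.2 of non-defeated libraries. Gm21986, which shares its exons, had a log2 fold change of -0.52 ± 0.14 (SE, edgeR adjusted p = 0.19) in the same comparison.

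Between susceptible and resilient mice, 1.89% of genes tested were called at an adjusted p under 0.05, again none of the 9, and at an unadjusted p under 0.05, 10.8% were higher and 10.1% lower. Of the 9 genes, 3 were higher at that unadjusted threshold (Nlgn2, Cntnap2 and Cntnap5a) and 0 lower. Nlgn2 had 17.0, 13.3, 12.8 and 14.2 TMM CPM in resilient libraries 3, 5, 7 and 8, all below the 29.9, 22.6 and 19.6 of susceptible libraries. The difference was 1.68-fold, a log2 fold change of 0.75 ± 0.21 (SE, edgeR unadjusted p = 0.00252, adjusted p = 0.0691, exact permutation p = 0.0286). It passed an adjusted p under 0.05 with edgeR's likelihood ratio test (adjusted p = 0.0216) and with DESeq2 on these groups alone (adjusted p = 0.00426). It also passed without the susceptible library numbered 10 (edgeR adjusted p = 0.0422). That omission left 2 susceptible libraries, so that no exact permutation test could pass 0.05. The likelihood ratio test, DESeq2 and this omission called 1099, 1004 and 1058 genes of the table, against 403 in the main fit. In the other 9 settings Nlgn2 did not pass, with log2 fold changes of 0.66 to 0.81 and adjusted p of up to 0.138 over all 11 settings. It was also not called with any of the other 6 libraries left out, and over all 7 omissions the log2 fold change was 0.56 to 0.88 and the adjusted p 0.0422 to 0.271.

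Cntnap2 had 29.7, 29.2, 27.1 and 29.0 TMM CPM in resilient and 31.8, 35.5 and 31.8 in susceptible libraries. These did not overlap, but the difference was small, with a log2 fold change of 0.20 ± 0.09 (SE, edgeR unadjusted p = 0.0446, adjusted p = 0.227, exact permutation p = 0.0286). Cntnap5a had 6.53, 6.49, 4.84 and 7.53 TMM CPM in resilient and 9.29, 6.89 and 8.09 in susceptible libraries, which overlapped, and its log2 fold change was 0.35 ± 0.16 (SE, edgeR unadjusted p = 0.0404, adjusted p = 0.216, exact permutation p = 0.143). Each of these reached an unadjusted p under 0.05 in 2 of the 11 other settings. For the remaining 6 genes, log2 fold changes lay between -0.23 ± 0.12 (SE) for Nlgn3 and 0.24 ± 0.17 for Nrxn2.

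**Figure D4:**
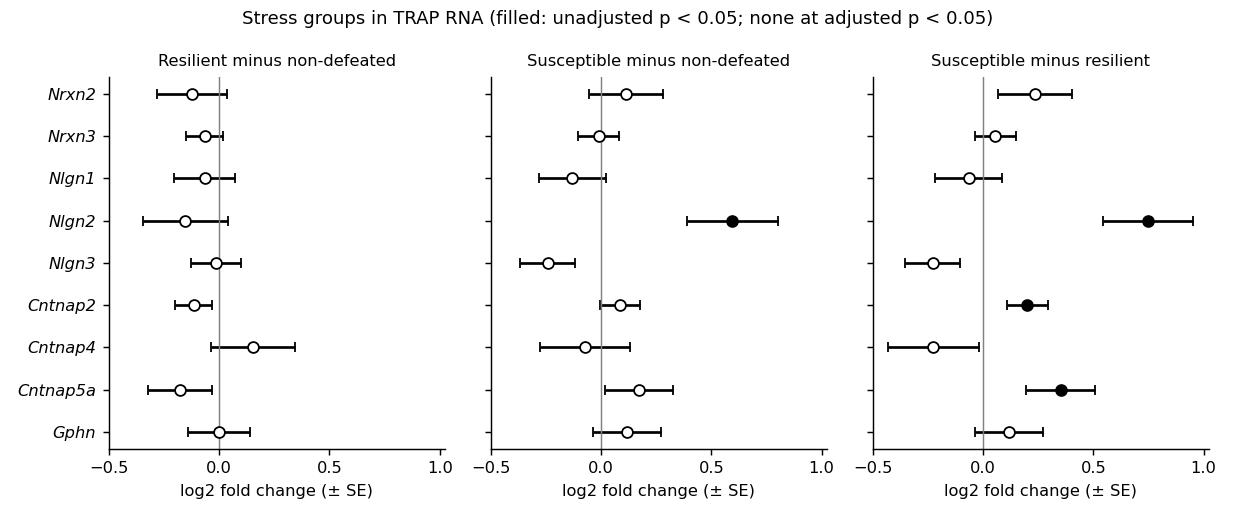
Log2 fold changes (x axis) of the 9 genes between TRAP groups (4 non-defeated, 4 resilient, 3 susceptible), one panel per comparison; points are estimates from the edgeR fit, bars are ± 1 SE, and filled points have an unadjusted p under 0.05. Nlgn2 stands apart at 0.60 and 0.75 in the 2 comparisons with susceptible mice, and no filled point appears between resilient and non-defeated mice.

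The neuroligin make-up had the same order without library scaling. It comes from the same counts as the levels above, so it is not separate evidence. Nlgn2 made up 40.8% to 50.0% of neuroligin RNA in susceptible libraries (mean 45.2% ± 4.61, SD, n = 3), 27.6% to 36.5% in resilient libraries (30.2% ± 4.19, SD, n = 4) and 22.2% to 42.8% in non-defeated libraries. Susceptible and resilient libraries did not overlap in this share, while 1 non-defeated library lay within the susceptible range. The share of Nlgn3 averaged 59.4% ± 3.66 (SD, n = 4) in resilient libraries and 45.7% ± 2.85 (SD, n = 3) in susceptible ones. Gm21986, which shares exons with Nlgn3, had a log2 fold change of -0.57 ± 0.145 (SE, edgeR adjusted p = 0.0584) between susceptible and resilient mice. How near the shares of Nlgn2 and Nlgn3 come to each other thus depends on the unknown assignment of reads in those exons. Shares of the contactin-associated and neurexin genes overlapped between these groups, with Cntnap4 at 46.3% to 57.4% in susceptible and 54.3% to 65.7% in resilient libraries, and Nrxn2 at 30.7% to 37.5% and 22.9% to 37.0%.

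Levels of several of these genes differed by the number in the sample name, whose meaning the labels do not give. Libraries numbered 1 to 6 were set against those numbered 7 to 11, a split made with the data known. Only 1 susceptible library is numbered 7 to 11, so differences by number and by group are partly mixed. The share of all genes tested that differ as much across this split was not counted. Over the 11 TRAP libraries, Nlgn2 was 0.51 higher on the log2 scale in libraries numbered 1 to 6 than in those numbered 7 to 11, Nrxn2 was 0.27 higher and Cntnap4 0.26 higher, and Gphn differed by -0.24 and Nlgn3 by -0.23. Within libraries 1 to 6, Nlgn2 was 0.79 higher in susceptible than in resilient mice on the log2 scale, and within 7 to 11 it was 0.54 higher, from 1 susceptible library against 2. Against non-defeated mice, the difference was 0.40 within 1 to 6 and 0.71 within 7 to 11. Nlgn3 differed between susceptible and resilient mice by -0.12 within 1 to 6 and by -0.35 within 7 to 11, and Cntnap4 by -0.11 and -0.57, the latter resting on the susceptible library numbered 10, at 20.8 TMM CPM.

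**Figure D5:**
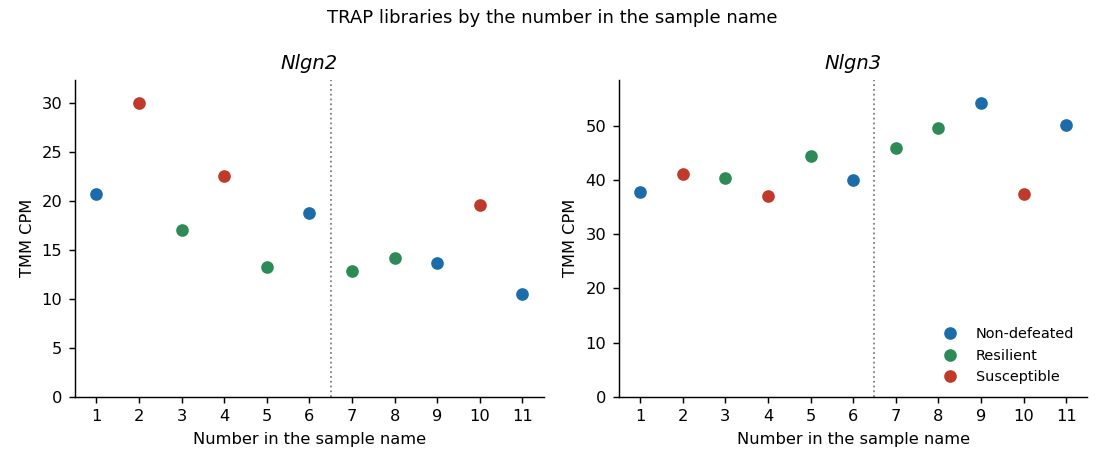
TMM CPM of Nlgn2 and Nlgn3 (y axes, from 0) in the 11 TRAP libraries against the number in the sample name (x axis), coloured by group; the dotted line separates numbers 1 to 6 from 7 to 11. For Nlgn2 the susceptible libraries (29.9, 22.6 and 19.6) lie above the other libraries on their side of the line. Across the line, the lowest susceptible library (19.6) is below the highest non-defeated one (20.7). The line was placed with the data known, and only 1 susceptible library lies to its right. Non-defeated libraries go from 20.7 and 18.7 on the left to 13.7 and 10.5 on the right.

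Marker levels of some other cells also differed in range between the stress groups, while no marker passed an adjusted p under 0.05 in edgeR. The summed level of 8 endothelial and mural markers was 13.1 to 19.9 TMM CPM in non-defeated, 18.8 to 47.4 in resilient and 33.8 to 44.4 in susceptible libraries. At an unadjusted p under 0.05, 4 of the 8 were higher in susceptible than in non-defeated mice, against 6.61% of all genes tested. Compared with resilient mice, 3 of 8 were higher in susceptible mice, against 10.8% of all genes tested. Resilient mice also had 3 of 8 higher than non-defeated mice, against 2.22% of all genes tested. None passed an adjusted p under 0.05. Markers of other interneurons summed to 459 to 661 TMM CPM in non-defeated, 462 to 814 in resilient and 535 to 901 in susceptible libraries. At the unadjusted threshold, 3 of 8 were higher in susceptible than in non-defeated mice, against 6.61% of all genes tested. Against resilient mice, 2 of 8 were higher in susceptible mice, with 10.8% of all genes tested higher, and 0 were lower in either comparison. PV interneuron markers summed to 4087 to 4403, 3852 to 4615 and 3362 to 4687 TMM CPM, and none of the 9 passed even the unadjusted threshold between TRAP groups. Summed markers of excitatory neurons averaged 901, 894 and 905 TMM CPM in non-defeated, resilient and susceptible libraries. Those of oligodendrocytes averaged 1045, 1043 and 1097, of their precursors 15.1, 15 and 14.9, of astrocytes 1234, 1372 and 1287 and of microglia 41.2, 43.0 and 41.6. Single libraries lay further apart than these means. Oligodendrocyte sums were 865, 887, 1168 and 1259 in non-defeated libraries 1, 6, 9 and 11. They were 517, 1594, 1138 and 921 in resilient libraries 3, 5, 7 and 8. In susceptible libraries 2, 4 and 10 they were 970, 901 and 1419. Excitatory neuron sums ranged over 759 to 1018, 633 to 1200 and 761 to 1119 in the 3 groups. Astrocyte sums ranged over 981 to 1469, 983 to 1640 and 984 to 1744. The part of these other cells in the values of Nlgn2, Cntnap2 and Cntnap5a was not tested.

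Over the 11 TRAP libraries, the 9 genes did not vary as one group. Log2 levels of Nrxn2 and Cntnap5a had a Pearson r of 0.80, Nlgn2 and Nrxn2 0.74 and Nlgn1 and Gphn 0.76, while Nlgn2 and Nlgn3 had -0.75 and Nlgn2 and Gphn -0.28. These values describe 11 libraries that share their group and number structure, and no p-value is attached. Among all genes tested, the patterns most like that of Nlgn2 belonged to Capns1 (r = 0.977), the small subunit of calpains, and Bex1 (r = 0.976). This r and those that follow are the highest of a search through all genes tested, with only 11 libraries. How high r would be from such a search alone was not tested. Gphn was most like Unc13a (r = 0.967), a vesicle priming gene, and Cadps2 (r = 0.961), which acts in dense-core vesicle release. The closest genes were Gm15795 (0.947) and Ptpre (0.926) for Nrxn2, Cacna1i (0.891) and Pidd1 (0.848) for Nrxn3, Gm26636 (0.932) and Ppp6r3 (0.922) for Nlgn1, and Atp6v0a1 (0.951) and Muc15 (0.941) for Nlgn3. They were Gas5 (0.944) and Ciao2a (0.937) for Cntnap2, Rps4l (0.944) and Atrnl1 (0.924) for Cntnap4, and Gm24951 (0.918) and Bsx (0.916) for Cntnap5a.

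The other genes of these pathways were counted in the same comparison with input, in which 27.4% of all genes tested were higher and 27.6% lower. Of 26 neurexin ligands and intracellular partners, 6 were higher, 7 lower and 13 neither, with a median log2 fold change of -0.07. The higher genes with the smallest p were Nxph1 and Nxph2, which encode neurexophilins, secreted ligands of alpha-neurexins, while Nxph3 and Nxph4 were not called, with estimates of -0.47 and -1.19. Nxph1 had 165 ± 7.18 TMM CPM (SD, n = 4) in TRAP RNA and 22.7 ± 0.227 (SD, n = 3) in input, a log2 fold change of 2.86 ± 0.18 (SE, edgeR adjusted p = 2.18e-08), and Nxph2 had a log2 fold change of 3.37 ± 0.34 (SE, adjusted p = 1.28e-06). Lin7c, an adaptor in the complex with Cask below neurexins, was lower at -1.99, and C1ql2, a secreted C1q-like ligand, at -1.77.

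Of 17 inhibitory postsynaptic partners of neuroligin 2 and gephyrin, 4 were higher, 6 lower and 7 neither, with a median of -0.24. Insyn2a, an inhibitory synaptic factor, was higher by 1.88 and Iqsec3, an Arf exchange factor that binds gephyrin, by 0.97 on the log2 scale, while Magi2, a scaffold protein, was lower at -0.65. Of 14 genes of the excitatory postsynaptic scaffold, 2 were higher (Shank1 by 1.31 and Dlgap3 by 0.30) and 8 lower, Homer3 and Homer2 among them at -1.38 and -1, with a median of -0.36.

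Of 19 contactins and partners of the contactin-associated proteins, 6 were higher and 5 lower, with a median of 0.28. Kcna1, a Kv1 potassium channel subunit that CASPR2 helps to cluster, was higher by 1.26 and Adam23 by 1.14, while Lgi1 was at -1.63 and Adam22 at -0.37. Of 26 other synaptic organizers, 5 were higher (Lrrc4b by 1.21 and Lrrc4 by 0.90 among them) and 8 lower (Cadm2 at -0.99 and Lrfn5 at -0.74), with a median of -0.02.

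Between susceptible and resilient mice, where 1.89% of all genes tested were called, 1 of the 26 neurexin ligands and partners and 1 of the 17 inhibitory postsynaptic partners were called, both lower in susceptible mice. With these groups alone in the edgeR fit, 0 genes of the table were called, so neither call held there (3348 genes had an unadjusted p under 0.05, and DESeq2 on these groups called 1004). Clstn3, a calsyntenin that binds neurexins, had 245 ± 22.6 TMM CPM (SD, n = 4) in resilient libraries and 163 ± 11.6 (SD, n = 3) in susceptible ones, a log2 fold change of -0.59 ± 0.14 (SE, edgeR adjusted p = 0.0468). Clptm1, which holds GABAA receptors in the secretory pathway, had 121 ± 5.56 and 91.4 ± 8.20 TMM CPM, a log2 fold change of -0.40 ± 0.09 (SE, edgeR adjusted p = 0.0393). No gene of the 5 lists was called between resilient and non-defeated or between susceptible and non-defeated mice by edgeR, where each list had 0 to 1 genes higher and 0 to 1 lower in the former comparison, and 1 to 3 higher and 0 to 4 lower in the latter, at an unadjusted p under 0.05.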

How the data were processed

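The authors aligned fastp-trimmed reads to mm10 with STAR, and the deposited table holds a raw count per gene for each of the 14 libraries; their processing notes name STAR 2.5.3a and HTSeq. The annotation and strand setting are not given in the sources used here. The labels call the molecule of input libraries translating RNA, as for TRAP libraries. No column was left out.

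Groups were taken from the labels. The fit used edgeR 4.0.16 (R 4.3.3) on all libraries at once, with TMM normalization, edgeR's default low-count filter, 2-sided quasi-likelihood tests and Benjamini-Hochberg adjustment over all genes tested. Exact permutation tests took log2 CPM (prior count 2). Lengths, GC content and coordinates came from GENCODE M21. The steps were tested on simulated data. Replicates differed by more than counting error (lowest chi-square per degree of freedom 13.2).

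Members and lists were chosen with earlier results of these data known. All 9 genes were named in every comparison, with 2 listed genes per direction with the smallest p among those called, 2 nearest patterns per gene and some defining markers. Of the genes that met this rule, 1 is not reported here. Alternatives were the likelihood ratio test, DESeq2 1.42.0, RLE factors, other filters, fewer groups, length and GC offsets, a covariate for the sample number and omitted libraries.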

Additional observations from a re-analysis of the deposited data

How the results depend on the processing

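The number of the 9 genes called between susceptible and resilient mice went from 0 to 1 (Nlgn2) with the likelihood ratio test, with DESeq2 on both groups, and without the susceptible library numbered 10; leaving out each library gave 0 to 1. The causes of these changes were not tested. Counts over all genes moved more: 403 genes were called between susceptible and resilient mice, but 1099 with the likelihood ratio test, 1004 with DESeq2 on these groups alone, 126 without a filter, 111 with a GC offset, 1 in TRAP libraries alone, 0 with edgeR on these groups alone and 6 to 1058 with a library left out. Between susceptible and non-defeated mice, 8 became 189 and 113 with the first 2 of these and 0 in TRAP libraries alone.

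The Nlgn3 call against input was lost with both groups alone, by edgeR (adjusted p = 0.0712) and by DESeq2 (0.0648), with a GC offset (0.112), and without non-defeated libraries 1 or 6 or input libraries 12 or 13; with a length offset its log2 fold change was 0.0107. The other reversals were of log2 fold changes that no setting called. Against input, Gphn was at 0.0142 with DESeq2 on both groups, 0.00868 with RLE factors, 0.213 with a length offset, 0.153 with a GC offset and -0.0983 to 0.0795 with a library left out. Between resilient and non-defeated mice, Gphn was at 0.00675 without a filter, 0.00131 with both groups alone, 0.00718 with the sample number as covariate and -0.0981 to 0.124 with a library left out. In that comparison Nlgn3 was at 0.000467 with a length offset, 0.0115 with the counts of Gm21986 added and -0.0935 to 0.08 with a library left out, and Nlgn1 at -0.16 to 0.0557. Between susceptible and non-defeated mice, Nrxn3 was at 0.0148 with a length offset, 0.00796 with the sample number and -0.0673 to 0.0362 with a library left out, Cntnap4 at -0.193 to 0.125 and Nrxn2 at -0.116 to 0.229. Between susceptible and resilient mice, leaving out a library gave -0.00217 to 0.124 for Nrxn3, -0.00683 to 0.216 for Gphn and -0.127 to 0.019 for Nlgn1.

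No paired analysis was possible because the groups compared share no sample numbers. The sum of Nlgn3 and Gm21986 and the sample number with a GC offset were chosen after seeing the data. Scaling by total counts alone moved the input level of 7 of 9 genes beyond 1 SD. With 3 against 4 libraries, exact permutation cannot go below p = 0.0286.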
